A study of Saccharomyces cerevisiae with 12 samples.

Results

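The SEC genes of budding yeast (Saccharomyces cerevisiae) were measured in cells that were quiescent, that were leaving quiescence, or that were growing. Members were all genes of the deposited table whose name is SEC followed only by digits, which gave 36 of 6120 genes. They were sorted by textbook role into 7 genes of protein translocation into the endoplasmic reticulum (ER) and signal cleavage, 2 of sugar and lipid precursors for glycosylation, 6 of the COPII vesicle coat, 4 of the COPI vesicle coat, 5 of vesicle fusion between the ER and the Golgi, 2 of the late Golgi, 4 of exocytosis and 6 of the exocyst. Poly(A) RNA of strain pJD47 was sequenced in 4 groups of 3 libraries. Q cells had been moved from proliferating cultures in glucose medium into water with 10 mM D3-acetate and kept there for 7 days. E30 and E240 cells came from such cultures, washed and put back into liquid medium for 30 and 240 min, and LOG cells were in logarithmic growth. All 4 groups carry the strain pJD47, whose full genotype was not used here.

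Secretion in yeast was dissected with temperature-sensitive sec mutants, which gave these genes their shared name although they act at different steps. Proteins enter the ER through a channel, leave it in COPII-coated vesicles, are returned from the Golgi in COPI-coated vesicles, and reach the plasma membrane in secretory vesicles that the exocyst tethers before SNARE proteins fuse them. Most SEC genes are essential, and in a budding cell their route carries new membrane and wall material to the growing bud.

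All 36 genes were found in the R64 (sacCer3) RefSeq annotation, on 11 chromosomes and with coding lengths of 504 to 6588 bp. None overlapped another annotated gene in these coordinates, which hold no untranslated regions. Overlap with untranslated regions or unannotated transcripts was not checked. The use of strand in the authors' counting is unknown, and its effect on the members was not tested. Only SEC14, SEC17 and SEC27 have an intron. No member was at 0 in any library, the lowest value being 23 reads, and all 36 passed the filter on low values.

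The short sequences given here are the stretches of 29 bases (19 at the edge of the window) in which 2 regulatory motifs were found within 250 bases before the start codon of a SEC gene, among 8 motifs searched on both strands. The Reb1 motif TTACCCG is the binding sequence of a general promoter-binding factor. CAGCGTG is the core of the element bound by Hac1, the transcription factor of the unfolded protein response, which is known for inducing secretory pathway genes. Capitals mark the motif, written as CGGGTAA or CACGCTG where it lies on the other strand. Sequences are from R64 (sacCer3), 5′ to 3′ on the strand of the gene.
SEC66, Reb1, chrII:578204-578232, plus strand: gacgcatcttaTTACCCGccaaaaaacgt
SEC59, Reb1, chrXIII:296947-296975, minus strand: gtatgggtgtgCGGGTAAtgctaagatac
SEC13, Reb1, chrXII:559330-559358, plus strand: tcacccacgcaTTACCCGaaagttttcaa
SEC27, Reb1, chrVII:249706-249734, plus strand: tgacgaatgagCGGGTAAtaaactgtctt
SEC20, Reb1, chrIV:1447120-1447148, minus strand: cacacgctgtcCGGGTAAatagaattgtt
SEC9, Reb1, chrVII:511156-511184, minus strand: gagactttctaTTACCCGtctttcaaaaa
SEC8, Reb1, chrXVI:667516-667544, plus strand: aaactttatggCGGGTAAcgctcaaatag
SEC31, Hac1 core, chrIV:106958-106976, plus strand: tCAGCGTGaaaaatcacca
SEC20, Hac1 core, chrIV:1447129-1447157, minus strand: aatcacctgcaCACGCTGtccgggtaaat
SEC20, Hac1 core, chrIV:1447021-1447049, minus strand: taagatcggatCACGCTGccaaggcgcat

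Reb1 matches were thus held by 7 of 36 members (19.4%), against 7.03% of 6001 promoter windows of the genome. These 7 genes belong to 7 different roles. Hac1 core matches were held by 2 members (5.56%), SEC31 and SEC20, against 1.00% of all windows, and in SEC20 a Hac1 and a Reb1 match lie side by side without overlapping. The window of SEC8 also reaches into the neighbouring gene SMK1. RRPE (AAAAATTT) was found in 6 members (16.7%), SEC62, SEC63, SEC66, SEC53, SEC39 and SEC3, against 13.4% of windows, and PAC (GCGATGAG), also known from ribosome biogenesis genes, in SEC62 alone, against 3.83%. The stress response element AGGGG was found in SEC23 alone (2.78%), against 18.8% of windows, and the Swi4 motif CGCGAAA in SEC2 alone, against 3.35%. The Mbp1 motif ACGCGT and the Rpn4 motif GGTGGCAAA matched no member, against 2.90% and 1.13% of windows. A match is a description of these letters and not a binding site. SEC27 was the only COPI gene with any of the 8 motifs.

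The libraries held 1195233 to 5220494 reads in Q, 7943459 to 11866340 in E30, 11572190 to 12428294 in E240 and 13480102 to 15100323 in LOG. The deposited values are reads divided by one factor per library, here called normalised reads; 1 read was worth 6.97 of them in Q replicate 1, 1.46 and 1.70 in the other Q libraries and 0.554 to 0.863 elsewhere. Replicate 1 differed from replicates 2 and 3 in every group. The LOG libraries were the most uneven, with a median SD of log2 values of 0.39 over the members and 0.42 over all genes, against 0.19 to 0.21 over the members in Q, E30 and E240. Of 4 genes known from starved or stressed cells, HSP12 and CTT1 came close to their Q levels in LOG replicates 2 and 3, and HSP26 and SPG4 stayed below all Q libraries. HSP12, a membrane stress protein, had 1297, 38799.9 and 22735 normalised reads in LOG replicates 1, 2 and 3, against 23778 to 29459 in Q, and CTT1, the cytosolic catalase, had 665, 2052 and 2186, against 1503 to 3145 in Q. HSP26, a small heat shock protein, had 898, 4424 and 2509, against 4927 to 5558 in Q, and SPG4, a stationary-phase gene, had 79.8, 3568 and 2023, against 43690.3 to 68728 in Q. All 4 were higher in LOG replicates 2 and 3 than in LOG replicate 1. CDC19, the glycolytic pyruvate kinase, was high in all LOG libraries, at 75373 to 119191 against 7950.4 to 8958 in Q. The other genes checked for growth on glucose were HXT1, RPL3 and ENO2. HXT1 had 1716 in LOG replicate 1, against a mean of 6038 in LOG replicates 2 and 3. RPL3 had 25363 against 16584, and ENO2 had 71370 against 60018. The part of these library differences in the SEC results was not tested. LOG results are given with all LOG libraries, without LOG replicate 1, and with LOG replicate 1 as the only LOG library.

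The SEC genes were close to the average gene in level in quiescent cells, and their median was higher from 240 min on. Divided by coding length, the median member had 497 normalised reads per kb in Q, 499 in E30, 592 in E240 and 601 in LOG, and the median of all 5990 coding genes was 502, 509, 471 and 476 at the same points. Between 16 (E30) and 23 (LOG) of the 36 members lay above the median of all genes. The highest member was SEC17 in Q (4464 ± 295 per kb, SD, n = 3), SEC53 in E30 (3602 ± 122) and E240 (6741 ± 857), and SEC4 in LOG (10434 ± 5754). The lowest was SEC12 in Q (120.4 ± 18.1 per kb), and SEC16 in E30 (92.4 ± 16.9), E240 (87.6 ± 17.3) and LOG (55.9 ± 8.14). Exocyst transcripts were the least abundant of the larger groups, with medians of 218, 246, 346 and 292 per kb in Q, E30, E240 and LOG. The translocation genes had medians of 642, 1081, 1637 and 1272 per kb, and the COPI genes 589, 563, 1347 and 1721. RNA was measured in bulk and scaled between libraries, so a change in the share of cells that express a gene and a change within each cell cannot be told apart.

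**Figure D1:**
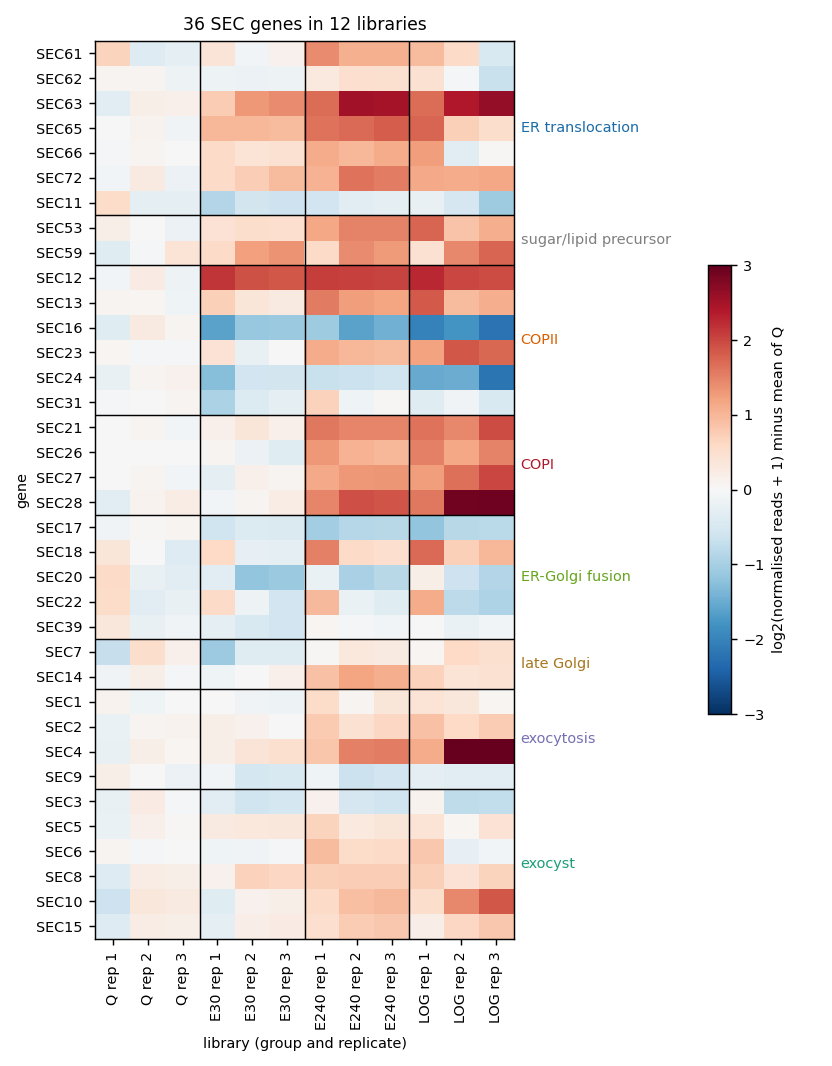
Log2(normalised reads + 1) of the 36 SEC genes (rows, grouped by role) in the 12 libraries (columns, Q to LOG), shown as the difference from that gene's mean in Q, with red for higher and blue for lower. The 4 COPI rows turn red at E240 and LOG, SEC12 and SEC63 are red from E30, and SEC16, SEC17 and SEC24 are blue in all later groups.

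Over the 4 time points, the highest mean was in Q for 8 members, in E30 for none, and in E240 and LOG for 14 each. The lowest mean was in Q for 19 members and in E30 for 13. Of the 36 members, 20 were called in at least 1 of the 3 successive comparisons, a call being an adjusted p under 0.05 in limma. By step, 44.4%, 27.3% and 7.36% of all genes tested were called. Neither the peaks nor the call patterns were counted over all genes, so they only describe the members. The most frequent pattern, in 12 members, was no call at 30 min, a rise between 30 and 240 min and no call after that. A rise at both of the first steps was called in 2 members (SEC63 and SEC72), a rise at 30 min alone in 3 (SEC12, SEC65 and SEC59), and a fall at 30 min alone in 2 (SEC16 and SEC17). SEC24 was called lower at 30 min and again in log phase, and 16 members were not called at any step. In each of the 5 comparisons made, all members called changed the same way within replicate 1 and within replicates 2 and 3. These differences are parts of the values that gave the calls, so they are not a separate check.

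The first comparison asks what the first 30 min in medium did to the secretory transcripts. In E30 against Q, 5 members rose and 3 fell, which is 8 of 36, against 44.4% of all genes tested (20.6% higher and 23.7% lower). The members' median log2 change was 0.01, against -0.07 for all genes. The libraries of the groups did not overlap for 18 members, against 62.7% of all genes. Translocation genes rose in 3 of 7 (SEC63, SEC65 and SEC72), with a median of 0.49, and none fell in limma, while edgeR and DESeq2 each called 1 of them lower. The 10 coat genes had 1 rise and 2 falls, all in COPII, with a median of 0.03, and none of the 6 exocyst genes was called by limma, edgeR or DESeq2 (1 at an unadjusted p under 0.05), with a median of 0.01. Scaling each library to its total instead raised the median of all genes by 0.25 on the log2 scale. It gave 8 members higher and 1 lower, beside 45.1% of all genes called.

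SEC12 showed the largest change of all members at this step. It encodes the ER membrane protein that loads GTP onto the GTPase Sar1 and so starts a COPII coat (YNR026C, chrXIV:673274-674689, minus strand). It had 160.4, 199.7 and 152 normalised reads in Q libraries, 753, 636 and 616 in E30, 714, 708 and 688 in E240, and 814, 682 and 656 in LOG. All 9 later libraries lay far above the 3 Q libraries, and the later groups overlapped one another. The log2 fold change in E30 against Q was 1.97 ± 0.18 (SE), or 3.92-fold (limma, adjusted p = 1.79e-05), and the change in E240 against E30 was 0.08 ± 0.18 (adjusted p = 0.791). Per coding length, SEC12 ranked 20 of the 36 members in E30, against 36 in Q. SED4, an ER membrane protein related to Sec12, had means of 248.4 ± 27.7 in Q, 353.7 ± 10.8 in E30 and 787.8 ± 109.5 in E240 (SD, n = 3). Its log2 change was 1.14 ± 0.19 in E240 against E30 (limma, adjusted p = 0.000913).

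SEC63 (YOR254C, chrXV:805032-807023, minus strand) encodes the membrane partner of the translocation channel that recruits the ER chaperone Kar2. It had 690.4, 989.9 and 964 normalised reads in Q, 1477, 2129 and 2342 in E30, 2766, 4975 and 4903 in E240, and 2772, 4582 and 5387 in LOG. Each of the first 3 groups lay wholly above the one before, while E240 and LOG overlapped. Its log2 change was 1.16 ± 0.31 in E30 against Q (limma, adjusted p = 0.00975) and 1.07 ± 0.31 in E240 against E30 (adjusted p = 0.0249). The second of these rises was lost under total-count scaling (0.61, adjusted p = 0.119) and without E30 replicate 1 or 2 or E240 replicate 2 or 3 (0.87 to 1.13). KAR2 itself, the ER Hsp70 chaperone, had 15323, 12876 and 12418 normalised reads in E30 against 3536, 3654 and 3851 in Q, a log2 change of 1.87 ± 0.37 (adjusted p = 0.00161).

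SEC65, a subunit of the signal recognition particle, and SEC72, a subunit of the Sec63 complex, rose as well. SEC65 had 792, 798 and 767 normalised reads in E30, against 404, 427 and 369 in Q, and its log2 change was 0.97 ± 0.26 (limma, adjusted p = 0.01). SEC72 had 549.7, 617 and 721 in E30, against 349, 443 and 329 in Q, with a change of 0.75 ± 0.20 (adjusted p = 0.00969), and its groups did not overlap either. SEC72 missed the threshold without E30 replicate 3 (adjusted p = 0.0504). SEC66, which pairs with SEC72 in the Sec63 complex, was higher in all E30 libraries (721, 645 and 665) than in the Q libraries (460.3, 509 and 480.1), but it was not called, with a change of 0.49 ± 0.31 (adjusted p = 0.224). SEC61, the channel itself, had 761, 548 and 634 in E30, against 914, 440.3 and 480.1 in Q, and these values overlapped. SEC62, the other channel partner in post-translational import, had 1418, 1388 and 1421 in E30, against 1659.7, 1666 and 1411 in Q, also overlapping. SEC11, the catalytic subunit of signal peptidase, was lower in all E30 libraries (514, 639 and 616) than in Q (1374, 781 and 776), with a change of -0.68 ± 0.27 (adjusted p = 0.0556; 0.0404 with the replicate number as a block).

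SEC16 and SEC24 were the called members with the largest falls. SEC16 (YPL085W, chrXVI:387067-393654, plus strand) encodes the scaffold of ER exit sites and has the longest coding sequence of the 36. It had 1151, 1792 and 1558 normalised reads in Q, 481, 666 and 679.5 in E30, 705, 486 and 541 in E240, and 361, 425 and 319 in LOG. No later library reached the lowest Q library, and the LOG libraries were all below those of E30 and E240. Its log2 change in E30 against Q was -1.29 ± 0.23 (limma, adjusted p = 0.000914). SEC24 (YIL109C, chrIX:157385-160165, minus strand) encodes the COPII subunit that binds cargo. It had 2092, 2548 and 2666 in Q, 993, 1623 and 1647 in E30, 1534, 1558 and 1601 in E240, and 845, 869 and 527 in LOG. It was again the case that no later library reached the lowest Q library, and LOG lay below every other group. The change in E30 against Q was -0.81 ± 0.25 (adjusted p = 0.0195). This call was lost under total-count scaling (-0.55, adjusted p = 0.106) and without Q replicate 2, Q replicate 3 or E30 replicate 1.

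SEC59, SEC17 and the remaining fusion genes complete the first step. SEC59 (YMR013C, chrXIII:295179-296738, minus strand), the dolichol kinase that makes the lipid carrier of N-glycans, had 305, 480.5 and 528 normalised reads in E30, against 160.4, 198 and 272 in Q. The groups did not overlap, and the log2 change was 1.05 ± 0.36 (limma, adjusted p = 0.0325), lost without Q replicate 1, Q replicate 2, E30 replicate 2 or E30 replicate 3 (adjusted p up to 0.112). SEC17 (YBL050W, chrII:125125-126119, plus strand) is the yeast alpha-SNAP, which brings Sec18 to SNARE complexes. It had 3633, 4008 and 4130.1 in Q, 2609, 2931 and 2910.4 in E30, 1889, 2172 and 2210.1 in E240, and 1727, 2215 and 2232 in LOG. Each of Q, E30 and E240 lay wholly apart from the next, downward, and LOG overlapped E240. The E30 change of -0.48 ± 0.18 was close to the threshold (adjusted p = 0.0468) and was lost under 10 of 24 other settings, total-count scaling (-0.22, adjusted p = 0.307) among them. The change of -0.91 ± 0.18 in E240 against Q (adjusted p = 0.000915) was called under all 24.

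Among the other ER-Golgi fusion genes, SEC20, an ER SNARE of the retrograde pathway, had 508, 278 and 294 normalised reads in E30, against 941, 542 and 504 in Q. Within each replicate number E30 was lower, by a log2 change of -0.87 ± 0.35 (limma, adjusted p = 0.0611; 0.000525 with the replicate block), although the groups overlapped. SEC39, a subunit of the Dsl1 tether that receives COPI vesicles at the ER, had 564, 505 and 465 in E30, against 872, 593 and 642 in Q (change -0.44 ± 0.19, adjusted p = 0.0706; 0.0218 with the block). SEC18, the ATPase that takes SNARE complexes apart, and SEC22, an R-SNARE, had overlapping values in E30 and Q, with changes of 0.02 ± 0.35 and -0.05 ± 0.53. SEC7, the Arf exchange factor of the late Golgi, had 1056, 1756 and 1761 in E30, against 1402, 3256 and 2521 in Q (change -0.61 ± 0.31, adjusted p = 0.131; 0.0165 with the block). The block moved the members called from 5 higher and 3 lower to 7 higher and 7 lower, adding SEC13 (adjusted p = 0.042) and SEC8 (0.0451) above and SEC11, SEC20, SEC39 and SEC7 below, where 57% of all genes were called in the blocked fit.

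The 92 partner genes that act with the SEC products gave 22 rises and 9 falls in E30 against Q, so that 33.7% of them were called and 23.9% rose, against 44.4% and 20.6% of all genes. Translocation partners rose in 9 of 17 and fell in none. The exocyst partners rose in 3 of 5, the largest being RHO3, a small GTPase of polarised exocytosis, at 1.95 ± 0.26 on the log2 scale (limma, adjusted p = 0.000134), where no exocyst SEC gene was called. Exocytosis partners were split, 3 up and 2 down of 10, with SSO2, a plasma membrane SNARE, at 0.95 ± 0.21 (adjusted p = 0.00282) and SRO77, a binding partner of the SNARE Sec9, at -1.34 ± 0.20 (adjusted p = 0.000312). ER-Golgi fusion partners fell in 4 of 20 and rose in none, and UFE1, the ER SNARE that pairs with Sec20 and Sec22, fell furthest (-1.65 ± 0.34, adjusted p = 0.0023). COPI partners rose in 3 of 9, GEA2, an Arf exchange factor, with 0.99 ± 0.31 (adjusted p = 0.0222). COPII partners were split 2 and 2 of 13, between SVP26, a cargo adaptor of COPII vesicles, at 1.16 ± 0.29 (adjusted p = 0.00589) and ERV46, a vesicle membrane protein, at -1.39 ± 0.33 (adjusted p = 0.00517). Precursor partners had 1 rise, CAX4, the dolichyl pyrophosphatase (1.15 ± 0.20, adjusted p = 0.000776), and 1 fall, ALG13, a subunit of a glycosyltransferase (-1.45 ± 0.31, adjusted p = 0.00242), of 11. Of 7 late Golgi partners, KES1, a sterol-binding protein known as an opponent of Sec14, rose (1.14 ± 0.15, adjusted p = 0.000149).

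**Figure D2:**
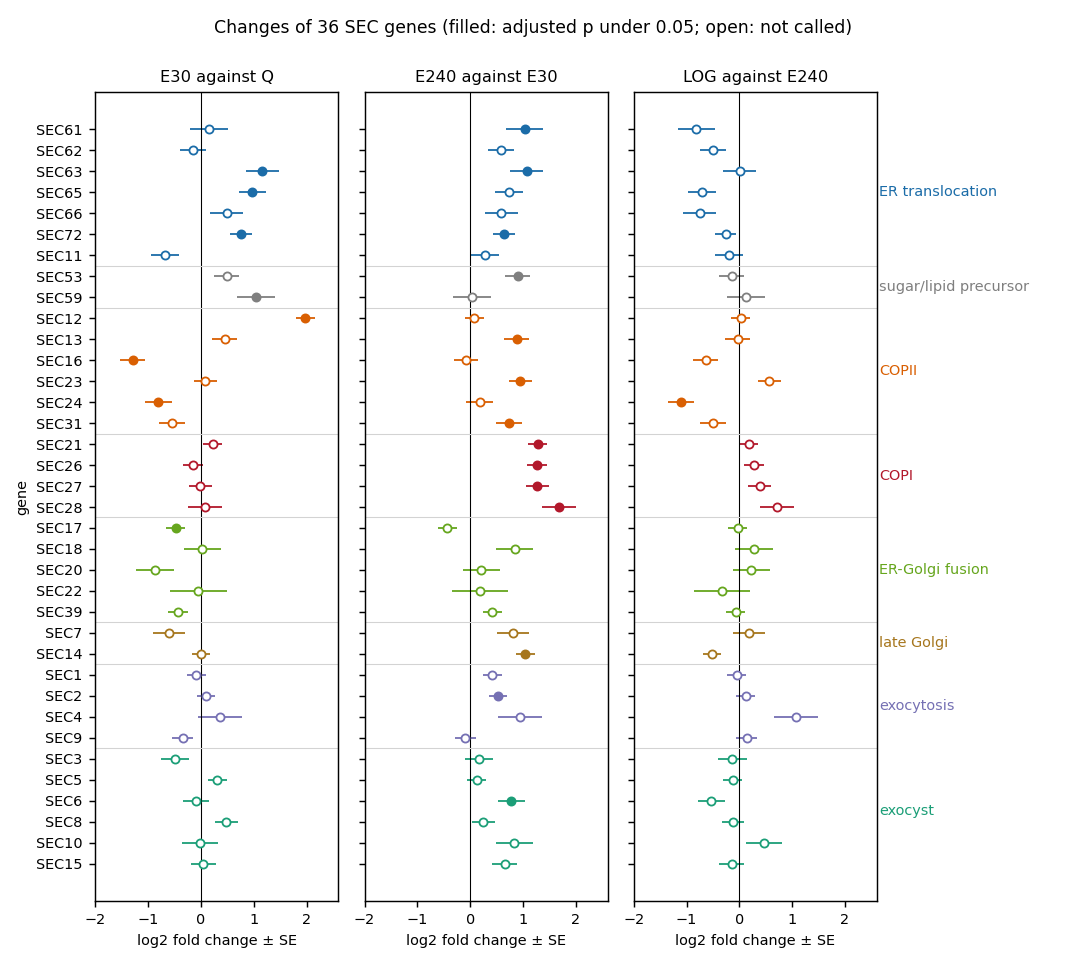
Log2 fold change ± SE of the 36 SEC genes in the 3 successive comparisons, coloured by role, with filled points for genes called at an adjusted p under 0.05. Filled points lie on both sides of 0 in E30 against Q (5 higher, 3 lower), only to the right in E240 against E30 (14 higher), and SEC24 alone is filled in LOG against E240.

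Between 30 and 240 min every SEC gene that was called rose, and the COPI genes had the largest median change of the roles with at least 4 members. In E240 against E30, 14 of 36 members rose, against 27.3% of all genes tested (13.3% higher and 14% lower). None fell in limma or edgeR, against 1 in DESeq2 and 1 at an unadjusted p under 0.05. The libraries of the groups did not overlap for 25 members, against 53.1% of all genes. The median log2 change was 0.65 over the members and -0.01 over all genes. All 4 COPI genes rose, each at least 2-fold, with a median of 1.27. COPII added 3 rises of 6 (SEC13, SEC23 and SEC31, median 0.46), so that the coats together had 7 rises of 10. Translocation had 3 of 7 (SEC61, SEC63 and SEC72, median 0.64) and the exocyst 1 of 6 (SEC6, median 0.45). The remaining rises were SEC53, SEC14 and SEC2. Total-count scaling shifted the median of all genes by -0.45 and left 5 members higher and 1 lower, beside 38.5% of all genes called. The 4 COPI genes and SEC14 stayed called, and SEC17 was called lower (-0.88, limma, adjusted p = 0.0018). Relative to the median of all genes, the members' median was 0.20 against -0.46 on that scale.

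The COPI subunits had not been called in E30 against Q, with changes of -0.15 to 0.22 on the log2 scale. SEC21 (YNL287W, chrXIV:91994-94801, plus strand), the gamma subunit, had 1199, 1259.7 and 1115 normalised reads in Q, 1315, 1539.7 and 1318 in E30, 3562, 3284 and 3266 in E240, and 3659.8, 3241 and 4619 in LOG. SEC26 (YDR238C, chrIV:937895-940816, minus strand), the beta subunit, had 1618, 1615 and 1622 in Q, 1722, 1439 and 1252 in E30, 4018, 3325 and 3226 in E240, and 4595, 3646 and 4542 in LOG. SEC27 (YGL137W, chrVII:249869-252738, plus strand), the beta-prime subunit, had 1674, 1755 and 1565 in Q, 1389.8, 1838 and 1756 in E30, 3645, 4106 and 4164 in E240, and 3937, 5259.7 and 6689 in LOG. In all of them the E240 and LOG libraries lay wholly above the Q and E30 libraries. SEC28 (YIL076W, chrIX:216658-217548, plus strand), the epsilon subunit, had 718, 951 and 1030.0 in Q, 843, 940.1 and 1039 in E30, 2451, 3378 and 3268 in E240, and 2659, 6655 and 6719 in LOG. It showed the same separation, with LOG replicates 2 and 3 far above LOG replicate 1. The log2 changes in E240 against E30 were 1.28 ± 0.18 for SEC21 (limma, adjusted p = 0.000381), 1.26 ± 0.19 for SEC26 (0.000525), 1.26 ± 0.22 for SEC27 (0.00121) and 1.68 ± 0.32 for SEC28 (0.00253). These 4 were called under all 24 other settings. Only SEC27 carries one of the motif matches shown above.

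COPII genes were divided at this step, with 3 called and 3 not. SEC23 (YPR181C, chrXVI:897361-899667, minus strand), the GTPase-activating subunit of the inner coat, had 1220.4, 1143 and 1141 normalised reads in Q, 1582, 1008 and 1182 in E30, 2546, 2336 and 2268 in E240, and 2678, 4253 and 3856 in LOG. E240 lay wholly above E30, and Q and E30 overlapped. Its log2 change in E240 against E30 was 0.95 ± 0.22 (limma, adjusted p = 0.0078), and total-count scaling ended the call (0.50, adjusted p = 0.0755). SEC13, an outer coat subunit that also belongs to the nuclear pore, had 2286, 1855 and 1766 in E240, against 1281, 1009.7 and 934 in E30 (change 0.88 ± 0.24, adjusted p = 0.0185); this call was lost under total-count scaling (0.43, adjusted p = 0.233) and without E30 replicate 2, E30 replicate 3 or E240 replicate 1. SEC31, its outer coat partner, had 1093, 624 and 694 in E240, against 349, 514 and 564 in E30. Its change of 0.74 ± 0.24 (limma, adjusted p = 0.0409) was 1.64 within replicate 1 and 0.29 within replicates 2 and 3. The call was lost under 9 of 24 other settings (adjusted p up to 0.399). Among them were total-count scaling, only the 2 groups compared, and leaving out replicate 1 of all groups. SEC24 and SEC16, called lower at 30 min, had changes of 0.18 ± 0.25 and -0.08 ± 0.23 at this step, with overlapping libraries.

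Because Sec23 with Sec24, and Sec13 with Sec31, form the paired layers of one coat, their ratio within each library was followed as a description, the pairs being chosen after their values were seen. Per coding length, SEC23 over SEC24 was 0.703, 0.541 and 0.516 in Q, 1.92, 0.749 and 0.865 in E30, 2.00, 1.81 and 1.71 in E240, and 3.82, 5.90 and 8.81 in LOG. The ratio was below 1 in all Q libraries and above 1 in all E240 and LOG libraries. SEC13 over SEC31 was 5.42, 5.13 and 4.24 in Q, 15.7, 8.40 and 7.08 in E30, 8.95, 12.7 and 10.9 in E240, and 22.4, 10.2 and 14.3 in LOG, so that every later library exceeded the Q libraries. SEC18 over SEC17 was 0.0726, 0.0518 and 0.0382 in Q, 0.119, 0.0587 and 0.0579 in E30, 0.309, 0.140 and 0.132 in E240, and 0.383, 0.153 and 0.183 in LOG; E240 and LOG lay above Q, with replicate 1 the highest in each group. SEC28 over SEC21, which belong to one complex, had 2.17, 3.24 and 3.15 in E240 and 2.29, 6.47 and 4.58 in LOG, against 1.89, 2.38 and 2.91 in Q, with overlap in both. SEC10 over SEC8, within the exocyst, had 1.88, 2.28 and 2.39 in E240 and 1.79, 4.11 and 4.69 in LOG, against 1.73, 2.24 and 2.20 in Q. Both overlapped Q, with LOG replicates 2 and 3 well above it. The other pairs, of 8 computed, were SEC63 over SEC61, SEC66 over SEC72 and SEC4 over SEC2. All of these overlapped Q in E240. In LOG, SEC66 over SEC72 overlapped Q, while SEC63 over SEC61 and SEC4 over SEC2 lay above it.

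**Figure D3:**
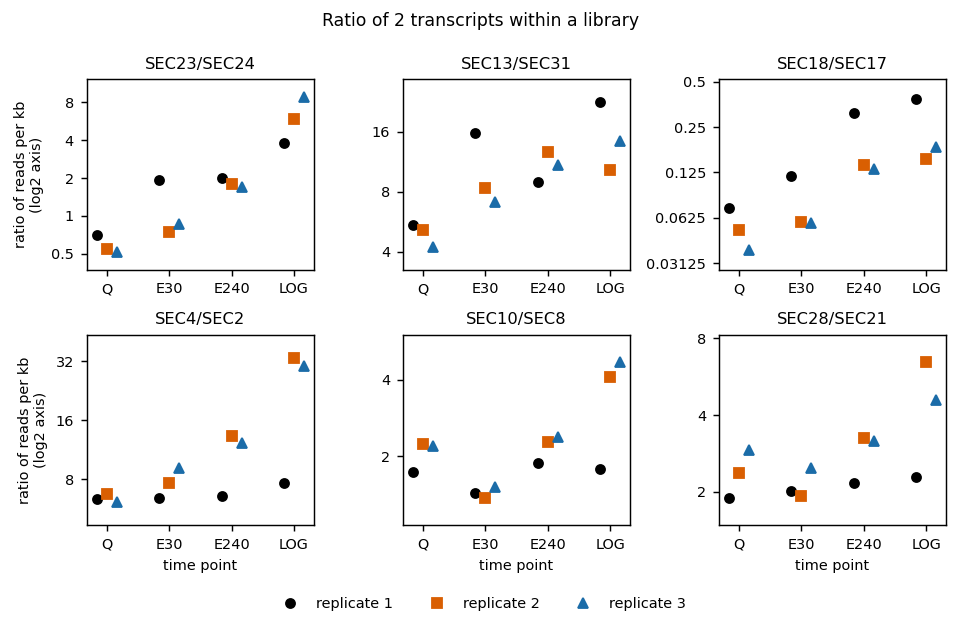
Ratio of the reads per kb of 2 transcripts within each library, on a log2 axis, for 6 pairs of SEC genes at Q, E30, E240 and LOG, with a symbol per replicate. SEC23/SEC24 lies below 1 in Q and between 3.82 and 8.81 in LOG, while SEC10/SEC8 in LOG (1.79 to 4.69) overlaps Q (1.73 to 2.24).

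SEC14 (YMR079W, chrXIII:424989-426059, plus strand, with 1 intron) encodes the phosphatidylinositol and phosphatidylcholine transfer protein of the late Golgi. It had 586, 704 and 599 normalised reads in Q, 572, 629 and 692 in E30, 1151, 1428 and 1329 in E240, and 1019, 835 and 866 in LOG. E240 was wholly above each of the other groups. The log2 change in E240 against E30 was 1.04 ± 0.17 (limma, adjusted p = 0.00102) and was called under all 24 other settings. SEC7 had 2324, 2803 and 2714 in E240, against 1056, 1756 and 1761 in E30, with no overlap (change 0.81 ± 0.31, adjusted p = 0.0702; 0.00573 with the block).

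SEC53 (YFL045C, chrVI:43628-44392, minus strand), the phosphomannomutase that supplies mannose for glycosylation, was the most abundant SEC transcript per length at E30 and E240. It had 2211, 1973 and 1750.1 normalised reads in Q, 2654, 2837 and 2775 in E30, 4401, 5506 and 5565 in E240, and 6607, 3584 and 4190.1 in LOG. Q, E30 and E240 each lay wholly above the one before, and LOG overlapped E240. The log2 change in E240 against E30 was 0.90 ± 0.24 (limma, adjusted p = 0.0147), lost under total-count scaling (0.45, adjusted p = 0.184) and without E240 replicate 2 or 3. PSA1, which makes GDP-mannose from the product of Sec53, had a change of 1.40 ± 0.29 (adjusted p = 0.00394). SEC59 had 305, 551 and 499 in E240, overlapping E30, and a change of 0.04 ± 0.36.

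The channel gene SEC61 (YLR378C, chrXII:875736-877178, minus strand) was called at this step and at no other successive one. It had 914, 440.3 and 480.1 normalised reads in Q, 761, 548 and 634 in E30, 1547, 1205 and 1205 in E240, and 1113, 865 and 424 in LOG. The E240 libraries lay above all others, and LOG overlapped both Q and E30. Its log2 change in E240 against E30 was 1.03 ± 0.35 (limma, adjusted p = 0.0471). This was close to the threshold and was lost under 10 of 24 other settings, among them total-count scaling (0.58, adjusted p = 0.225). SSS1, the small channel subunit, had a change of 1.01 ± 0.20 (adjusted p = 0.00309). SEC72 had 765, 1141 and 1069.6 in E240, above all E30 libraries, with a change of 0.64 ± 0.20 (adjusted p = 0.0345), lost under total-count scaling (0.19, adjusted p = 0.484) and without E30 replicate 1 or 2 or E240 replicate 2 or 3. SEC65 and SEC66 were also above E30 in all E240 libraries, at 1242, 1297 and 1400.1 and at 1049, 957 and 1044, without a call (adjusted p = 0.0549 and 0.188). SEC62 had 1919, 2236 and 2192 in E240 (change 0.58 ± 0.25, adjusted p = 0.0999) and SEC11 634, 748 and 764 (0.28 ± 0.27, adjusted p = 0.482).

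Of the 4 exocytosis genes, SEC2 was called. SEC2 (YNL272C, chrXIV:126805-129084, minus strand), the exchange factor that activates the Rab GTPase Sec4 on secretory vesicles, had 537, 656 and 669 normalised reads in Q, 698, 679 and 608 in E30, 1074, 854 and 945 in E240, and 1129.7, 940.2 and 1043 in LOG. E240 and LOG lay above Q and E30, and the log2 change in E240 against E30 was 0.53 ± 0.17 (limma, adjusted p = 0.0408). That change was 0.08 under total-count scaling (limma, adjusted p = 0.779), and the call was lost under 9 of 24 other settings, this one included. SEC4 (YFL005W, chrVI:130334-130981, plus strand), that Rab GTPase, had 969, 1265 and 1164 in Q, 1278, 1483 and 1573 in E30, 2013, 3225 and 3275 in E240, and 2456, 8897 and 8931 in LOG. Each of Q, E30 and E240 lay above the one before, and LOG replicate 1 lay within E240 while LOG replicates 2 and 3 were far above it. The E240 change against E30 of 0.94 ± 0.41 was not called (adjusted p = 0.111; 0.0279 with the block). SEC1, which binds assembled SNAREs, had 720.0, 517 and 631 in E240, against 485, 459.6 and 439.5 in E30 (change 0.42 ± 0.18, adjusted p = 0.106; 0.0457 with the block). SEC9, the SNAP-25-type SNARE, had 1423, 1007 and 1058 in E240, overlapping E30 at 1487, 1091 and 1142.

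Of the exocyst genes, SEC6 was called at this step. SEC6 (YIL068C, chrIX:233057-235474, minus strand) had 551, 497 and 516 normalised reads in Q, 473, 483 and 512 in E30, 1005, 763 and 776 in E240, and 911, 442 and 489 in LOG. E240 was wholly above Q and E30, and LOG overlapped every group. The log2 change in E240 against E30 was 0.78 ± 0.25 (limma, adjusted p = 0.0358), lost under 9 of 24 other settings. SEC8 (YPR055W, chrXVI:667676-670873, plus strand) had 335, 506 and 490.3 in Q, 479, 708 and 667 in E30, 712, 729.7 and 728 in E240, and 716, 591 and 693 in LOG; it was above Q in all E240 and LOG libraries. Its E240 change was 0.25 ± 0.21 against E30 (adjusted p = 0.428) and 0.73 ± 0.21 against Q (adjusted p = 0.0109). SEC10 and SEC15, which binds Sec4, had E240 libraries at 1093, 1360.1 and 1422 and at 820.3, 966 and 1007, wholly above E30 at 563, 795 and 828 and at 465, 656 and 678. Neither was called without the block (adjusted p = 0.0919 and 0.0588), and both were with it (0.00597 and 0.0038). SEC5 had 1013, 781 and 822 in E240, and SEC3, the subunit that marks the site of tethering, 2196, 1415 and 1334, both overlapping E30.

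With the replicate number as a block, 23 members were called in E240 against E30, 22 higher and 1 lower, against 14 without it; the same fit called 39.4% of all genes. SEC65 (adjusted p = 0.0351), SEC39 (0.0388), SEC18 (0.00255), SEC7, SEC1, SEC4, SEC10 and SEC15 were added above and SEC17 (0.0264) below. Of these, SEC18 had 1514, 789 and 755 normalised reads in E240, against 805, 446 and 437 in E30, and within each replicate E240 was the higher, though the groups overlapped. SEC20 and SEC22 were called in neither fit at this step, with E240 values of 555, 325 and 357 and of 619, 277 and 245.

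Among the 92 partner genes, limma called 27 (29.3%) higher in E240 against E30 and none lower, against 13.3% higher and 14% lower of all genes. The rises were 7 of 17 in translocation, 2 of 11 in precursors, 5 of 13 in COPII, 4 of 9 in COPI, 2 of 20 in ER-Golgi fusion, 4 of 7 in the late Golgi, 2 of 10 in exocytosis and 1 of 5 around the exocyst. ARF1, the GTPase that recruits COPI, had a log2 change of 1.23 ± 0.24 (limma, adjusted p = 0.00312). KES1 and SSO2 had their second called rise, at 1.23 ± 0.15 (adjusted p = 0.000179) and 1.54 ± 0.21 (adjusted p = 0.000241). USO1, a tether of ER-derived vesicles, had 1.14 ± 0.28 (adjusted p = 0.0102), and RHO1, a GTPase that binds the exocyst, 0.63 ± 0.21 (adjusted p = 0.0431).

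**Figure D4:**
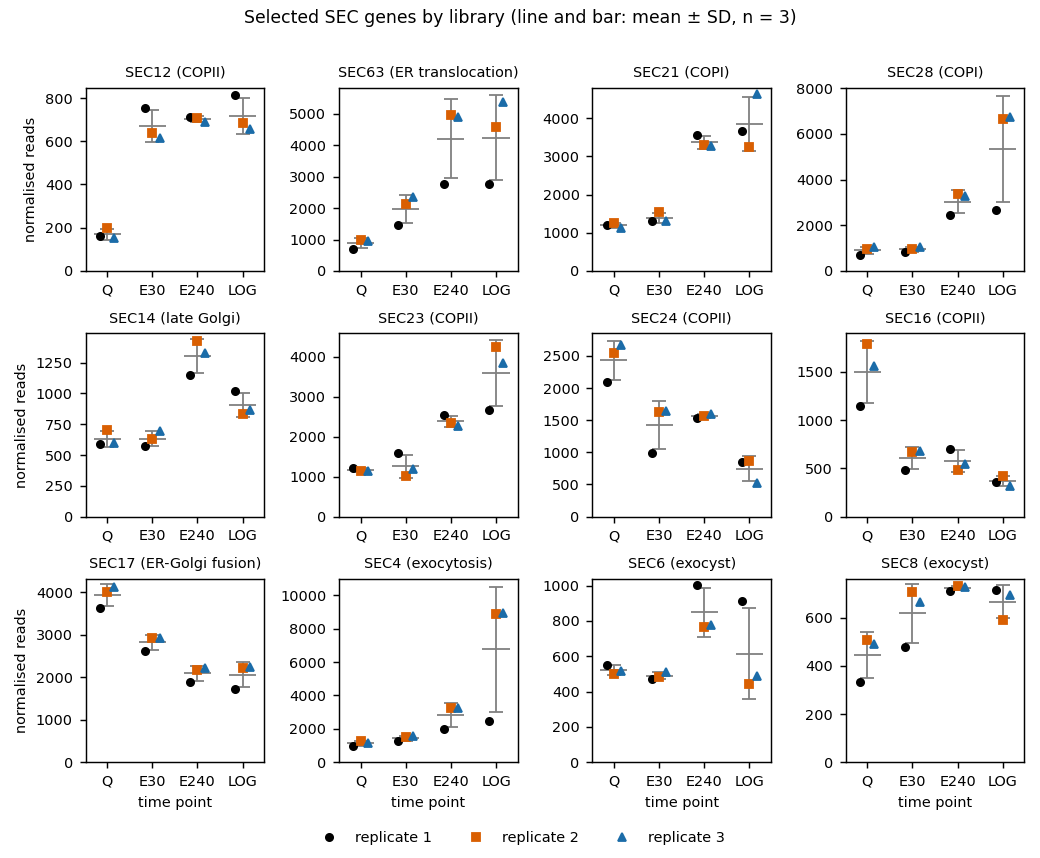
Normalised reads of 12 SEC genes in each library at Q, E30, E240 and LOG, with a symbol per replicate and grey lines and bars for mean ± SD (n = 3). SEC12 is separated from Q in all later groups, SEC21, SEC28 and SEC14 are higher from E240 on, SEC24, SEC16 and SEC17 are lower than Q in all later groups, and in LOG SEC4 and SEC28 are higher in replicates 2 and 3 than in replicate 1.

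Few differences were called between log phase and 240 min. In LOG against E240, SEC24 alone of the 36 members was called, and it fell, against 7.36% of all genes tested (3.27% higher and 4.09% lower). The median log2 change was -0.06 over the members and -0.01 over all genes. The LOG libraries lay wholly apart from E240 for 5 of 36 members, against 22.4% of all genes. None was called higher by limma or edgeR, against 1 by DESeq2 and 3 at an unadjusted p under 0.05. Total-count scaling lowered the median of all genes by 0.27. It gave 4 members lower and none higher, beside 13.7% of all genes called. DESeq2 called 3 members beside 15.8% of all genes, and the replicate block called 5 (2 higher and 3 lower) beside 18.2%. The calls the block added were SEC4 (adjusted p = 0.0352) and SEC28 (0.0465) above and SEC14 (0.0443) and SEC61 (0.0445) below. SEC24 had 845, 869 and 527 normalised reads in LOG, against 1534, 1558 and 1601 in E240, a log2 change of -1.10 ± 0.25 (limma, adjusted p = 0.0247). With LOG replicate 1 as the only LOG library the difference was -0.89 (adjusted p = 0.15); in that fit the spread comes from the other 3 groups alone, and the single LOG library is assumed to vary as they do. The call was also lost without LOG replicate 3, E240 replicate 2 or E240 replicate 3. RET2, the delta subunit of COPI, was the only partner called, at -0.86 ± 0.20 (adjusted p = 0.0307), while no COPI SEC gene was called.

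The calls in log phase changed when LOG replicate 1 was left out. Without it, 12 members were called in LOG against E240, 5 higher and 7 lower, against 35.4% of all genes in the same fit. SEC4 (log2 change 1.69), SEC28 (1.16), SEC10 (0.84), SEC23 (0.77) and SEC27 (0.58) were higher. SEC66 (-1.22), SEC61 (-1.11), SEC65 (-1.09), SEC6 (-0.85), SEC62 (-0.77) and SEC14 (-0.61) were lower, beside SEC24. With LOG replicate 1 as the only LOG library, limma called no member and 2.47% of all genes, a fit that has no spread of its own for LOG. Within replicate 1 the LOG change against E240 was 0.29 for SEC4, 0.12 for SEC28 and 0.13 for SEC66, and within replicates 2 and 3 it was 1.46, 1.01 and -1.20. SEC66 had 1149, 385 and 493 normalised reads in LOG, SEC65 had 1343, 652 and 581, and SEC10 had 1047, 1985 and 2660.2. In these genes LOG replicate 1 stood apart from the other LOG libraries, which are those with higher HSP12 and CTT1. The part of that difference was not tested.

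**Figure D5:**
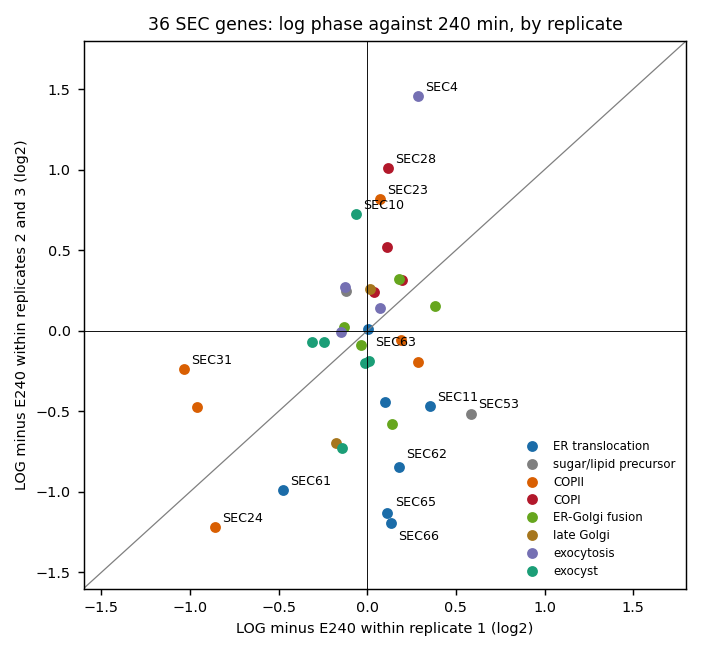
Log2 change of the 36 SEC genes in LOG against E240 within replicate 1 (horizontal axis) and within replicates 2 and 3 (vertical axis), coloured by role, with a grey line of equality. SEC4 (0.29 and 1.46) and SEC28 (0.12 and 1.01) lie above the line, SEC66 (0.13 and -1.20) and SEC65 (0.11 and -1.13) below it, and SEC24 (-0.86 and -1.22) is negative in both.

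Against quiescent cells, the called SEC genes were mostly higher at 240 min. In E240 against Q, 20 members rose and 3 fell, 16 and 1 of them at least 2-fold, against 58.6% of all genes tested (29.1% higher and 29.5% lower). On the total-count scale, 16 members were higher and 4 lower, beside 58.0% of all genes called. The median log2 change was 0.77 over the members and 0.01 over all genes, and the libraries did not overlap for 28 members, against 69.8% of all genes. Rises were called in 5 of 7 translocation genes (all but SEC62 and SEC11), in both precursor genes, in 3 of 6 COPII genes, in all 4 COPI genes, in SEC14, SEC2 and SEC4, and in 3 of 6 exocyst genes (SEC6, SEC8 and SEC15). These exocyst calls were all lost under total-count scaling (0.49, 0.53 and 0.50), and those of SEC6 and SEC15 also without single Q or E240 libraries. The block instead called 5 of 6, adding SEC5 (adjusted p = 0.0421) and SEC10 (0.00305), and outside the exocyst SEC18 (0.0008) above and SEC20 (0.00172) and SEC9 (0.0178) below. The same blocked fit called 68.1% of all genes. The falls were SEC16 (-1.37 ± 0.23, limma, adjusted p = 0.000305), SEC17 (-0.91 ± 0.18) and SEC24 (-0.63 ± 0.25, adjusted p = 0.0444). The SEC24 call was lost under 7 of 24 settings, each of which leaves out 1 library of Q, E30 or E240 (adjusted p up to 0.127). Among the rises outside the exocyst, those of SEC59 and SEC4 were lost under 4 and 3 of 24 settings, and those of SEC61 and SEC2 under 1 each. SEC63 had the largest rise (2.23 ± 0.31, adjusted p = 7.65e-05), ahead of SEC12 (2.05 ± 0.18, adjusted p = 2.41e-06). The exocyst rises were each under 2-fold (0.69 to 0.73), where the COPI rises were 1.11 to 1.75. The count ranged from 19 to 30 over the other settings. It was 19 without E240 replicate 2, beside 51.1% of all genes, and 30 with array weights, beside 85.6%. The count thus changed together with the share of all genes called, and its range only describes the members.

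In LOG against Q, 18 members rose and 3 fell, against 56.7% of all genes tested (28.8% higher and 27.8% lower), and this comparison shares its Q libraries with E240 against Q. The median log2 change was 0.53 over the members and 0.05 over all genes, and the libraries did not overlap for 23 members, against 59% of all genes. Total-count scaling shifted the median of all genes by -0.47 and gave 11 members higher and 8 lower, beside 57.2% of all genes called. It kept 14 of the 21 calls. The rises of SEC65, SEC59, SEC18, SEC14, SEC2, SEC8 and SEC10 were lost on that scale. SEC8, SEC14 and SEC59 lost their calls under 5, 4 and 4 of 24 other settings. The block added SEC15 (limma, adjusted p = 0.00478) above and SEC20 (0.0184) below, beside 66.8% of all genes called. Without LOG replicate 1, 24 members were called, 19 higher and 5 lower, beside 62.3% of all genes. Leaving it out added SEC15 (0.71) above and SEC3 (-0.75) and SEC11 (-0.79) below. The coats had 7 rises and 2 falls of 10, in LOG as in E240. Translocation genes had 3 rises of 7 (median 0.36), where E240 against Q had 5 of 7 (median 1.18). The exocyst had 2 of 6 (SEC8 and SEC10, median 0.42), where E240 against Q had 3 of 6 (median 0.69). SEC28 (2.47 ± 0.32, limma, adjusted p = 4.42e-05) had the largest rise in the mean and SEC16 (-2.01 ± 0.23, adjusted p = 1.74e-05) the largest fall. SEC28 changed by 1.89 within replicate 1 and 2.76 within replicates 2 and 3, and against the mean of Q its value in LOG replicate 1 (1.58) was below those of SEC12 (2.26) and SEC21 (1.62). SEC4 was 2.36 ± 0.41 higher (adjusted p = 0.000402), by 1.34 within replicate 1 and 2.88 within replicates 2 and 3. SEC24 was -1.73 ± 0.25 (adjusted p = 9.3e-05). SEC18 was called here (1.13 ± 0.35, adjusted p = 0.0155), though not under total-count scaling (0.67, adjusted p = 0.147) or without Q replicate 3, while SEC17 was -0.94 ± 0.18 (adjusted p = 0.00076). With LOG replicate 1 as the only LOG library, and the spread taken from the other 3 groups, SEC10 (0.52), SEC59 (0.45) and SEC8 (0.71) were not called, while SEC66 (1.25) and SEC6 (0.80) were.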

How the data were processed

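Single-end poly(A) RNA-seq of 12 libraries was analysed. Per the submitters' processing notes, the tools were bedtools, DESeq2, DESeq, HTSeq 0.6.1 and STAR 2.5.2a and the build sacCer3, with no roles given. The deposited table holds a signal per gene and library, which the authors made, as its values show, by dividing read counts by one size factor per library: dividing by the value of 1 read turned 100% of values into whole reads (tolerance 1e-06). The planned test for normalised values was therefore used.

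One limma 3.58.1 model with an intensity trend (R 4.3.3) was fitted to log2(value + 1) of 5871 genes with a mean of at least 10, with 4 groups and 8 residual degrees of freedom; this scale understates the change of low genes. For each of 5 comparisons, two-sided p-values were adjusted by Benjamini-Hochberg over all genes tested. Count tests on the recovered reads, edgeR 4.0.16 and DESeq2 1.42.0, called 2613 and 2855 genes in E30 against Q, 1685 and 1975 in E240 against E30, and 512 and 925 in LOG against E240, where limma called 2605, 1602 and 432. Tested on simulated counts with 200 changed genes among 5871, limma recovered 36%, 34% and 21% of 2-fold changes in E30 against Q, E240 against E30 and LOG against E240, and 98%, 94% and 94% of 4-fold changes. The simulation changed fewer genes than limma called in the data, and the adjusted p depends on that share. The recovered shares therefore hold for the simulated setting and do not give the share of SEC changes missed. The Q libraries were the shallowest, so low Q values are the least precise.

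The labels call the replicates biological and do not say whether they came from separate cultures, so p-values measure the spread between these samples. Across genes, deviations from the group means had positive correlations (0.134 to 0.582) in each of the 18 same-numbered library pairs. The numbers were therefore used as a block in a second fit, as a feature of these data and not of the labels. The main fit has no block. Replicate 2 with replicate 3 gave 0.210 to 0.553, against 0.134 to 0.394 for replicate 2 with its own number. Replicate 1 with the other numbers gave -0.604 to -0.197. These values set replicate 1 apart and do not show that replicates 2 and 3 are paired by number. Blocked p-values are given beside the calls they add; they removed none. No pair of libraries agreed within sampling noise.

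The members, the partner lists, the motifs and the tests were chosen with earlier results of these data known. Values in every library are given for SEC61, SEC23, SEC21, SEC4 and SEC8, for the 2 called members with the largest change each way per successive comparison, and for the largest called change per role; other members were added after their values were seen. Partner genes named are the largest called change each way per list and step. Coordinates and sequences are from the RefSeq R64 assembly, and Python 3.11.15 and matplotlib 3.10.9 drew the figures.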

Additional observations from a re-analysis of the deposited data

How the results depend on the processing

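No called change had the opposite sign under any of 24 other settings, which reuse the same libraries. In E30 against Q, 8 members were called, beside 44.4% of all genes. Only the 2 groups compared gave 13 (52.4% of all genes) and the replicate block 14 (57.0%). Array weights, whose estimation stopped before convergence, gave 24 (81.4%), and replicates 2 and 3 only gave 19 (71.4%). Leaving out 1 library gave 5 to 14, beside 35.3% to 55.1% of all genes. In E240 against E30, 14 were called, beside 27.3% of all genes. Total-count scaling gave 6 (38.5%), only the 2 groups 22 (38.5%) and the block 23 (39.4%). Array weights gave 27 (75.2%) and replicates 2 and 3 gave 24 (60.6%). Leaving out E30 replicate 2 (17.2%) or E240 replicate 3 (17.9%) gave 7, the fewest. Leaving out LOG replicate 1 gave 22, the most (38.8%). In LOG against E240, 1 was called, beside 7.36% of all genes. Total-count scaling gave 4 (13.7%), DESeq2 3 (15.8%), only the 2 groups 0 (0.324%) and the block 5 (18.2%). Array weights gave 17 (57.1%) and replicates 2 and 3 gave 19 (62.6%). The setting with LOG replicate 1 alone was chosen after seeing the data. Leaving out 1 library gave 0 to 12, beside 0.818% to 35.4% of all genes. The causes were not tested, beyond the fewer samples in some settings. In E240 against Q, 23 were called, beside 58.6% of all genes. Leaving out 1 library gave 19 (without E240 replicate 2, 51.1%) to 27 (without LOG replicate 1, 66.5%). In LOG against Q, 21 were called, beside 56.7% of all genes. Leaving out 1 library gave 18 (without Q replicate 1, 51.4%) to 24 (without LOG replicate 1, 62.3%). Total-count scaling kept 19 of the 23 calls and 14 of the 21, so a similar count need not hold the same genes. Both counts stayed within 1.5 times. Pseudocount 5, no filter, a mean of at least 50, TMM and edgeR moved no count by more than that. Beside the calls named above, the block added SEC14, SEC28, SEC4 and SEC61 in LOG against E240, SEC10, SEC18, SEC20, SEC5 and SEC9 in E240 against Q, and SEC15 and SEC20 in LOG against Q, and changed no other call. Depth limits low Q values most, above all in replicate 1.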
